A study of Mus musculus with 6 samples.

Results

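The endothelial and barrier genes examined here were 10 genes that mark the cells lining blood vessels or build the barrier between blood and spinal cord: Pecam1, Cldn5, Flt1, Kdr, Tek, Cdh5, Slc2a1, Ly6a, Esam and Vwf. Members were the probe sets whose platform gene symbol was one of these genes alone. That gave 14 probe sets of 9 genes on array type A and 1 probe set, of Flt1, on array type B, out of 20380 and 14661 probe sets with 1 gene symbol. No probe set was named Ly6a in the platform annotation, so no value is given for that gene. The samples were 3 pools of total RNA from mouse spinal cord, segments L3 to L5, taken on postnatal day 27, and each pool combined 3 cords. Pool 1 (RNA 450) and pool 2 (RNA 500) were labelled Egr3-deficient and the remaining pool (RNA 499) wild type; strain, sex and the allele are not given in the labels. Egr3 is a zinc finger transcription factor of the early growth response family. Separate labelled extracts of each pool went onto array types A and B, which made 6 arrays in all, and a remark of acclimatization stands in the labels of pool 2 and wild type but not of pool 1. Pool 2 against wild type is therefore the comparison in which that remark is shared.

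Brain and spinal cord vessels are lined by endothelial cells joined by tight and adherens junctions, and these cells take up nutrients through dedicated carriers because little crosses between cells. Vascular endothelial growth factor acts on the receptors Flt1 and Kdr, the angiopoietins act on Tek, and both systems control how vessels grow and how tight they are. Endothelial cells are a small part of cord tissue, and in pooled tissue RNA fewer endothelial cells and less RNA per cell cannot be told apart.

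Windows near the starts of the 3 receptor genes of the group differ in sequence, which is of interest because the EGR proteins bind a GC-rich element. Promoter windows (GRCm38.p6, from 250 bases before to 50 bases after a start position assigned to the gene) were at hand for 5 of the 10 members: Cldn5, Flt1, Kdr, Tek and Slc2a1. They were searched on both strands for an EGR element, spelled GCGNGGGCG, and for the shorter GC box GGGCGG, which may overlap it. The EGR element was present in 5.55% of 32851 such windows and the GC box in 35.7%. The annotated bounds of Flt1 and Kdr reach further upstream, to 147726438 and 75979072, so their windows lie within the gene. The bounds of Tek begin at 94739086, within its window. Capitals mark every match, and each window is printed 5′ to 3′ along the gene, Flt1 from chr5:147725962-147726261 (minus strand), Kdr from chr5:75978406-75978705 (minus strand) and Tek from chr4:94739039-94739338 (plus strand).
Flt1: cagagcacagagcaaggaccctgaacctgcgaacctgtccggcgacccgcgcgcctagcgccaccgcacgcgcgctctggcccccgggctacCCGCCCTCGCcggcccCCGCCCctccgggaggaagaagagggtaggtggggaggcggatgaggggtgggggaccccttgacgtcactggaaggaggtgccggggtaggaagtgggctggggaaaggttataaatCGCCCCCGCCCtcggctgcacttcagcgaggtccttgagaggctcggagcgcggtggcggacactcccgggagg
Kdr: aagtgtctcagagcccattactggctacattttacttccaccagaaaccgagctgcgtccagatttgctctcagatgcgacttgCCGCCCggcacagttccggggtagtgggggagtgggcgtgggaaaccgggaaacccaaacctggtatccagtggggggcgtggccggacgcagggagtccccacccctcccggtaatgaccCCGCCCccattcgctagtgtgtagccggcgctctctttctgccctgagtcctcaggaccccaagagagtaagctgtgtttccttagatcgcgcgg
Tek: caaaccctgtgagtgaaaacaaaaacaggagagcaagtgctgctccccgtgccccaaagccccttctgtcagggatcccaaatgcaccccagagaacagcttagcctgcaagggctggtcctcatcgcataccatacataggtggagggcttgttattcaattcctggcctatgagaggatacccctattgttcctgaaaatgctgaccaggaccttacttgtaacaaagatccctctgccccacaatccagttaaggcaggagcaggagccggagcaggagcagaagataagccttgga
The Flt1 window held 2 EGR elements and 3 GC boxes, and each EGR element overlapped a GC box. Kdr held 2 GC boxes and Tek 0, and neither held the EGR element. Slc2a1 held 2 GC boxes and Cldn5 1, without the EGR element. A match says only that these letters are present. Flt1 was 70.7% G or C, Kdr 60.7% and Tek 52.0%, against a median of 52.7% over all windows.

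Endothelial and barrier genes lay slightly above wild type in most probe sets, and none passed the test. On array type A, 13 member probe sets passed the intensity filter, and of these 10 exceeded wild type in both pools, 2 were under it in both and 1 was split; without quantile normalization 8 were above and 2 under, and on scaling by the 100 probe sets that both array types share 7 were above and 3 under. Over all 13576 probe sets that passed it, 47.9% were above in both pools and 34.8% below. The median log2 difference of the members was 0.21, where the median of all these probe sets was 0.11. Limma (an adjusted p under 0.05, Benjamini-Hochberg over the array type) called 0 of the 13, at adjusted p values from 0.279 to 0.851, and 0 had an unadjusted p under 0.05. It called 0.0663% of all probe sets tested on A, and 20.7% had an unadjusted p under 0.05. All the calls on A were higher than wild type and were of skeletal muscle markers. No member probe set on A was 2-fold from wild type in either pool; 1.2% of all probe sets were at least 2-fold above in both pools and 4.35% at least 2-fold below. The 95% interval of the difference included 0 for each of the 13.

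Differences are on the scale log2(intensity + 16) after quantile normalization, each array type was fitted alone, and the filter kept probe sets at or above the 40th percentile of mean log2 value, an intensity of 36.7 on A and 55.9 on B. All comparisons set 2 pools against 1 unreplicated pool. An exact permutation test of such a comparison cannot give a two-sided p below 0.333. The limma SEs, 0.27 to 0.39 for the members on A, combine the spread between pools 1 and 2 with a prior that limma estimates over the whole array, and the wild-type pool is taken to vary as those do.

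**Figure D1:**
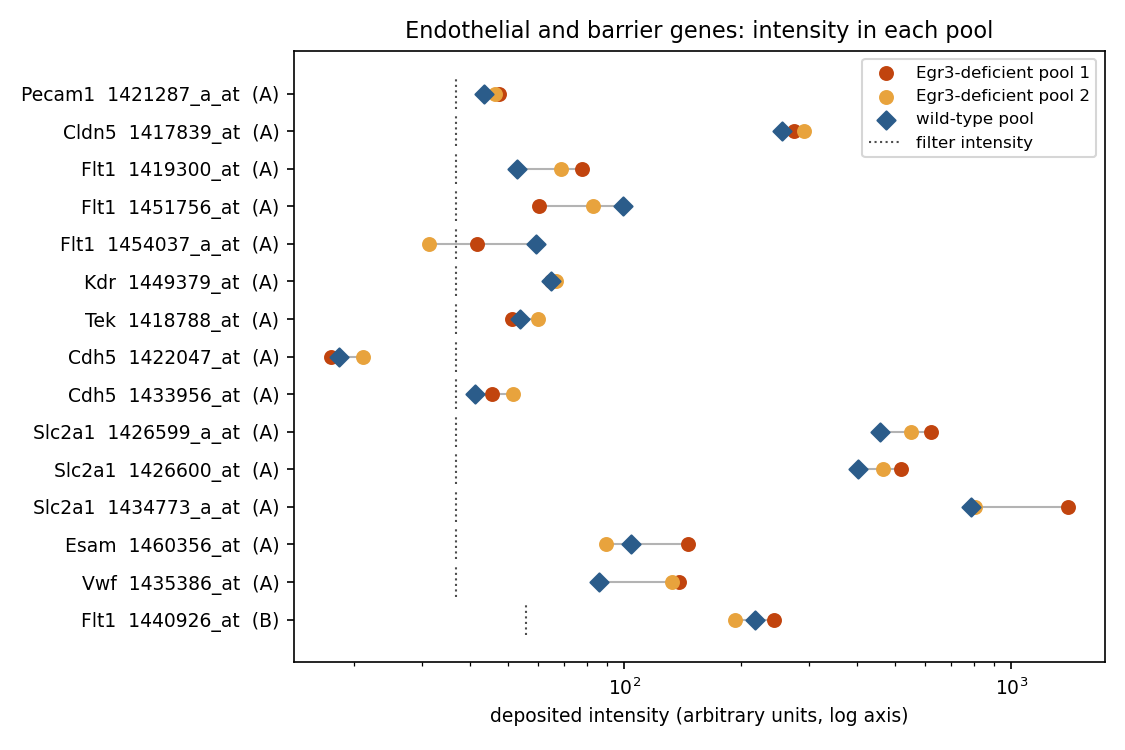
Deposited intensity (log axis) of every member probe set in each pool, with array type in parentheses and the filter intensity as a dotted line. Wild type is the lowest of the 3 pools for Vwf (86.2), the Slc2a1 probe sets, Cldn5, Pecam1, Cdh5 probe set 1433956_at and Flt1 probe set 1419300_at. It is the highest for Flt1 probe sets 1451756_at (99.2) and 1454037_a_at (59.0).

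Among the receptors, Flt1 was measured by 4 probe sets that did not point one way. Flt1 encodes VEGF receptor 1, which binds the factor tightly and also exists as a soluble form. Probe set 1419300_at read 77.7 in pool 1 and 68.7 in pool 2 against 52.9 in wild type, a log2 difference of 0.48 (SE 0.34, limma adjusted p = 0.425). Both pools were above wild type there. Probe set 1451756_at read 60.1 and 82.9 against 99.2, a difference of -0.30 (SE 0.33, adjusted p = 0.617). Probe set 1454037_a_at read 41.6 and 31.3 against 59.0, a difference of -0.41 (SE 0.36, adjusted p = 0.522), and its value in pool 2 lay under the filter intensity. Both pools were below wild type in these latter probe sets. On array type B, probe set 1440926_at read 244 and 193 against 218, so wild type lay between the pools. Its difference was 0.05 (SE 0.46, adjusted p = 0.983). That 1 probe set was not called, where limma called 1.63% of 13507 on B, and it was neither above in both pools, as 38.9% were, nor below, as 36.6% were. Which transcript forms of Flt1 each probe set detects was not analysed here, and a gene-wide direction cannot be read from the 4 values.

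Kdr and Tek were nearly level across the pools. Kdr, the main signalling receptor for vascular endothelial growth factor, read 64.5 and 66.6 against 64.6 in wild type. The 3 values spanned hardly more than 2 intensity units, and the log2 difference was 0.12 (SE 0.33, adjusted p = 0.851, 95% interval -0.64 to 0.88). Tek, the angiopoietin receptor also called Tie2, read 51.3 and 59.9 against 53.8, with wild type between the pools. Its normalized difference was 0.16 (SE 0.33, adjusted p = 0.804, 95% interval -0.61 to 0.92). For Kdr and Tek the normalized sign turned on shared scaling, to -0.025 and -0.0090. The intervals leave room for a change of over 1.5 times in either direction in both genes.

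Junction genes were above wild type by small amounts, apart from Esam in pool 2. Cldn5, the claudin that seals endothelial tight junctions, read 274 and 292 against 255 in wild type. Both pools lay above, with a log2 difference of 0.17 (SE 0.30, adjusted p = 0.760, 95% interval -0.53 to 0.87). Cdh5, the cadherin of endothelial adherens junctions, read 45.5 and 51.5 against 41.1 in probe set 1433956_at, a difference of 0.29 (SE 0.33, adjusted p = 0.625). Its other probe set, 1422047_at, read 17.5 and 21.2 against 18.3, under the filter intensity in all 3 pools, and was not tested. Pecam1, an adhesion molecule at endothelial cell contacts that platelets and leukocytes also carry, read 47.3 and 46.4 against 43.3, a difference of 0.20 (SE 0.33, adjusted p = 0.745). Its readings lay close above the filter intensity. Esam, another adhesion molecule of endothelial contacts and platelets, split the pools. It read 146 in pool 1 and 89.5 in pool 2 against 104, with log2 differences of 0.55 and -0.14 (mean 0.21, SE 0.39, adjusted p = 0.779). The SD between the pools was 0.49 for Esam, larger than its mean difference.

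Slc2a1 and Vwf lay above wild type in both pools in each of their probe sets, short of the threshold. Slc2a1 encodes the glucose transporter of the blood-brain barrier, which astrocytes also use. Probe set 1426599_a_at read 619 and 550 against 459 in wild type, a log2 difference of 0.33 (SE 0.27, adjusted p = 0.502). Probe set 1426600_at read 518 and 466 against 402, a difference of 0.28 (SE 0.28, adjusted p = 0.578). Probe set 1434773_a_at read 1401 in pool 1 but 804 in pool 2 against 786, a difference of 0.36 (SE 0.32, adjusted p = 0.530). The 3 probe sets thus had the same side of wild type, and the last of them rested on pool 1, since pool 2 differed by 0.025. Vwf, the clotting factor stored in endothelial cells and platelets, read 138 and 133 against 86.2. Both pools were above wild type, by 1.61-fold and 1.54-fold in deposited intensity, and the SD between them was 0.081 on the log2 scale. Its log2 difference of 0.67 (SE 0.32) was the largest among the members, with an unadjusted p of 0.0741, an adjusted p of 0.279 by limma and a 95% interval of -0.084 to 1.42.

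**Figure D2:**
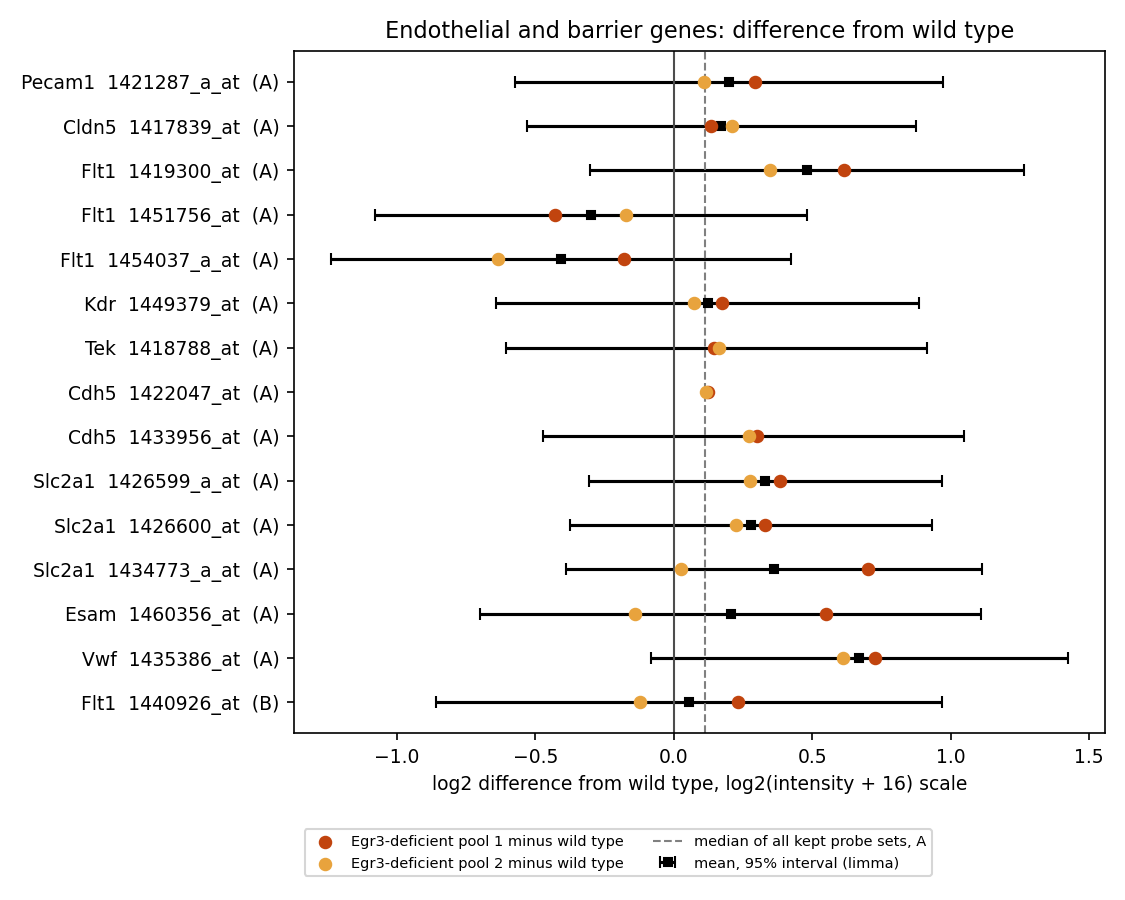
Log2 difference from wild type of pool 1 and pool 2 for each member probe set, with the mean and its 95% interval from limma (not drawn for the Cdh5 probe set under the filter). The dashed line is the median of all kept probe sets on A (0.11), and each interval crosses 0.

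The 2 pools differed in how far the members lay from wild type. Pool 1 had the higher difference in 10 of the 13 kept probe sets on A, and in 53.5% of all kept probe sets. The median difference was 0.30 in pool 1 and 0.16 in pool 2, and over all kept probe sets it was 0.16 and 0.061. The median SD between the pools was 0.081 for the members and 0.187 for all kept probe sets. In 11 of the 13 the mean difference exceeded the SD between the pools, as in 75.5% of all kept probe sets, and in 1, Vwf, it exceeded 2 SE, as in 28.4%. In deposited intensities, without further normalization, 8 of the 13 exceeded wild type in both pools and 2 lay under it in both, where the shares of all kept probe sets were 44.2% and 37.5%.

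Other cell types differed between the same pools, and their part in these values was not tested. Skeletal muscle markers (11 of 11 genes found on A) summed to intensities of 4711 and 5932 in pools 1 and 2 against 189 in wild type. Liver markers (7 of 8) summed to 418 and 10790 against 157. Red blood cell and platelet markers (7 of 9) summed to 548 and 565 against 368. Among these, the platelet chemokine gene Pf4 read 192 and 201 against 109, while Gp9, a platelet surface protein gene, was not above 8.09 in any pool. The other platelet genes varied. Ppbp read 33.8 and 30.8 against 16.2, under the filter intensity, and Itga2b 60.4 and 106 against 61.3. Gp1bb read 106 and 95.9 against 93.0 in probe set 1422977_at and 36.5 and 63.0 against 59.1 in 1456427_at. Muscle and liver have vessels of their own, and platelets hold Vwf, Pecam1 and Esam. No marker on these lists was listed at 0. Hba-a1, an alpha globin gene, read 9.94 and 13.5 against 14.0, under the filter intensity in every pool. Probe sets annotated to several genes, 691 on A, were left out of these lists, and no probe set was named Hbb-b1 alone. The level of globin RNA can therefore not be read from the 1 Hba-a1 probe set. Alas2, of the red blood cell and platelet list, read 104 and 49.2 against 7.04, with wild type under the filter intensity. Its log2 difference was 1.97, and 2.06 under median centring of the arrays. Leukocyte markers (5 of 7) summed to 106 and 133 against 149, and fibroblast and meningeal markers (7 of 7) to 6245 and 9201 against 6943. Of spinal cord markers, 7 of 10 were found on A and 4 on B, and they were spread. Their summed intensities were 48359 and 66052 against 72783 on A and 2950 and 2784 against 2162 on B. Of 13 kept probe sets on A, 6 lay above wild type in both pools, 3 below and 4 were mixed. All 4 on B were above. Without quantile normalization 3 on A were above and 7 below, and on shared scaling 2 above and 7 below. On B shared scaling left 0 above and 3 below. On A Hoxc9, a posterior Hox gene, was at 0.51 and the myelin gene Mbp at -1.42 in probe set 1425263_a_at. The other kept Mbp probe sets lay between -0.10 and 0.22 after quantile normalization. Some of these were under wild type in both pools in deposited intensity, such as 1451961_a_at (8164 and 10923 against 12637). The posterior Hox genes Hoxa10, Hoxc9, Hoxc10 and Hoxd10 and Chat, of motor neurons, read above the filter intensity in every pool, whereas the choline transporter gene Slc5a7 (6.94 and 20.3 against 33.3) and the A probe set of the glycine transporter gene Slc6a5 (14.6 and 16.8 against 13.1) read below it in every pool. The ratio of 3' over 5' signal is a measure of RNA quality for mRNA controls such as Gapdh and beta-actin. It set wild type far apart for 18S RNA, which is ribosomal, and much less for those controls. The part of this in the values above was not tested. The 18S ratio was 2.27 and 1.08 against 0.0493 on A and 1.43 and 0.945 against 0.0605 on B. For Gapdh on A the ratio was 0.858 and 0.975 against 0.734, and for beta-actin 1.37 and 1.48 against 1.36. On B it was 0.923 and 0.805 against 0.755 for Gapdh and 1.40 and 1.47 against 1.52 for beta-actin.

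Other endothelial identity genes, such as transcription factors and surface proteins of these cells, had no call either. On A, 23 of 24 genes were found. Of their 24 kept probe sets, 13 exceeded wild type in both pools and 5 lay under it, with a median log2 difference of 0.28 that was 0.13 on shared scaling. The median was 0.44 in pool 1 and 0.061 in pool 2. Pltp, a phospholipid transfer protein gene, read 1228 and 852 against 527 (a difference of 0.89 with SE 0.28, adjusted p = 0.175). Podxl, a surface sialomucin gene, differed by 0.69 (adjusted p = 0.306). On the other side, Adgrl4, an adhesion receptor gene, read 66.5 and 76.4 against 118 (difference -0.52, adjusted p = 0.374), and Ctla2a, a protease inhibitor gene, differed by -0.49. On B, 3 probe sets were kept, 1 above and 2 below, and their median was -0.77. The receptor gene Cd93 differed by 0.47 there, the transcription factor gene Erg by -0.83 (pool 1 under the filter intensity) and the phosphatase gene Ptprb by -0.77. The kept probe sets on A differed by 0.12 for Cd93, with the pools split, and by -0.29 for Ptprb.

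Barrier junction and transport genes were spread on both sides of wild type. On A, 7 of 25 kept probe sets were above in both pools and 11 below, with a median of -0.12, and 0 were called. Tfrc, the transferrin receptor that carries iron into the cord, read 36.8 and 87.5 against 216 (a difference of -1.56 with SE 0.42, adjusted p = 0.161); under median centring of the arrays, in place of quantile normalization, it was the 1 probe set of this list that limma called (-1.53, adjusted p = 0.00519). Limma called 6.07% of all kept probe sets on A under median centring. A wide spread between pools 1 and 2 did not prevent a call in that setting. The liver gene Alb was called (3.39, limma adjusted p = 2.5e-12), though it read 56.4 in pool 1 and 3712 in pool 2 against 37.7. Abcb1a, the drug efflux pump P-glycoprotein, read 47.2 and 71.4 against 155 (-1.10, SE 0.34, adjusted p = 0.173). Slc7a5 and Slc3a2, the chains of a large neutral amino acid transporter, lay on the other side. Slc7a5 read 182 and 107 against 72.0 (0.92, SE 0.40, adjusted p = 0.245), and Slc3a2 read 1021 and 880 against 520 (0.80, SE 0.26, adjusted p = 0.177). On B, 5 of 11 were above and 3 below, with a median of 0.10 that turned to -0.40 on shared scaling (2 above, 9 below). There the Wnt pathway factor gene Lef1 differed by 0.78 and the lipid carrier gene Mfsd2a by 0.57, against -1.15 for the junction gene Cgnl1 (pool 1 under the filter intensity) and -0.64 for the adhesion molecule gene Jam2. Their kept probe sets on A lay nearer wild type, at -0.16 for Cgnl1 and at -0.42 and -0.051 (pools split) for Jam2.

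Ligands and further receptors of the same pathways were also mixed. Of 18 kept probe sets on A for the VEGF, angiopoietin and Notch genes, 8 exceeded wild type in both pools and 7 lay under it, with a median of 0.096 and 0 called; the median turned to -0.0064 without quantile normalization and -0.049 on shared scaling. Pgf, placental growth factor, a ligand of Flt1, read 103 and 118 against 28.4 (a difference of 1.60 with SE 0.33, adjusted p = 0.161), and wild type was under the filter intensity. Its unadjusted p was 0.00142. Flt4, the receptor for VEGF-C, read 75.8 and 74.2 against 32.6 in probe set 1444052_at (1.07 in pool 1 and 0.93 in pool 2, adjusted p = 0.181), again with wild type under the filter intensity, and its other probe set was not kept. Hif1a, the oxygen-sensing transcription factor gene, read 17.8 and 47.8 against 113 in probe set 1448183_a_at (-1.38, SE 0.41, adjusted p = 0.167), with pool 1 under the filter intensity. Its other kept probe sets differed by -0.88 and -0.37. Under median centring, where limma called 6.07% of all kept probe sets on A, it called 2 of the 18. These were Pgf (1.63, adjusted p = 0.00196) and Hif1a probe set 1448183_a_at (-1.36, adjusted p = 0.0120). Notch1 differed by -0.67 in probe set 1418633_at and by 0.88 in 1418634_at, so its probe sets disagreed. On B, 3 of 6 were above and 1 below, with a median of 0.19 that turned to -0.43 on shared scaling, where all 6 were below. Angpt1, the ligand that activates Tek, read 56.7 and 116 against 241 there (-1.30, SE 0.50, adjusted p = 0.186), and Vegfc differed by 0.54 and Nrp2, a VEGF coreceptor gene, by 0.30.

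Mural cells wrap the endothelium, and of the 13 kept probe sets of their markers on A 6 exceeded wild type in both pools and 4 lay under it, with a median of 0.14 and 0 called; on shared scaling the median turned to -0.0051. Vtn, vitronectin, read 319 and 419 against 170 (a difference of 1.10 with SE 0.32, adjusted p = 0.168), and Cspg4, the NG2 proteoglycan gene, differed by 0.68, with wild type under the filter intensity. The further kept probe sets of these genes differed less, by 0.53 for Vtn and 0.31 for Cspg4. Rgs5, a pericyte regulator of G protein signalling, read 49.9 and 206 against 348 in probe set 1420941_at (-1.52, SE 0.60, adjusted p = 0.222). Its differences were -2.33 in pool 1 and -0.70 in pool 2. The other kept Rgs5 probe sets lay between -1.08 and -0.62. Under median centring limma called probe set 1420941_at (-1.47, adjusted p = 0.0137), where it called 6.07% of all kept probe sets on A. On B the 2 kept probe sets, both of the channel subunit gene Abcc9, differed by -1.96 and -0.14; the former, 1435751_at, read 40.4 and 19.5 against 175 and passed the filter only through wild type. Astrocytes contact these vessels with their endfeet, and of 21 kept probe sets of their markers on A 6 were above and 12 below, with a median of -0.20 and 0 called; both Aqp4 probe sets were called lower under median centring. On B, where limma called 1.63% of all kept probe sets, it called 2 of 6, both lower. These were Aqp4, the endfoot water channel gene, which read 356 and 434 against 1239 (-1.84, adjusted p = 0.0115), and Slc1a2, a glutamate transporter gene (-1.18, adjusted p = 0.0403). Slc1a2 read 3513 and 7489 against 7384, so in deposited intensity pool 2 lay slightly above wild type and only the normalized values were lower in both pools. The normalized differences were -1.88 in pool 1 and -0.48 in pool 2, with an SD of 0.99 between the pools. On A, Slc1a2 probe set 1451627_a_at read 86.2 and 66.7 against 78.7, a split with a mean difference of 0.050. Interferon-responsive genes, a list kept because Ly6a is itself inducible by interferon, had 2 kept probe sets on A with a median of -0.019. On B 1 of 2 was called, beside 1.63% of all kept probe sets. It was Ifi27 in probe set 1454757_s_at, which read 1751 and 1268 against 461 (1.50, SE 0.39, adjusted p = 0.0314). The other kept probe set on B, also of Ifi27, differed by 0.32. The 3 probe sets called on B, of Aqp4, Slc1a2 and Ifi27, were not called without quantile normalization, under median centring or on shared scaling.

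**Figure D3:**
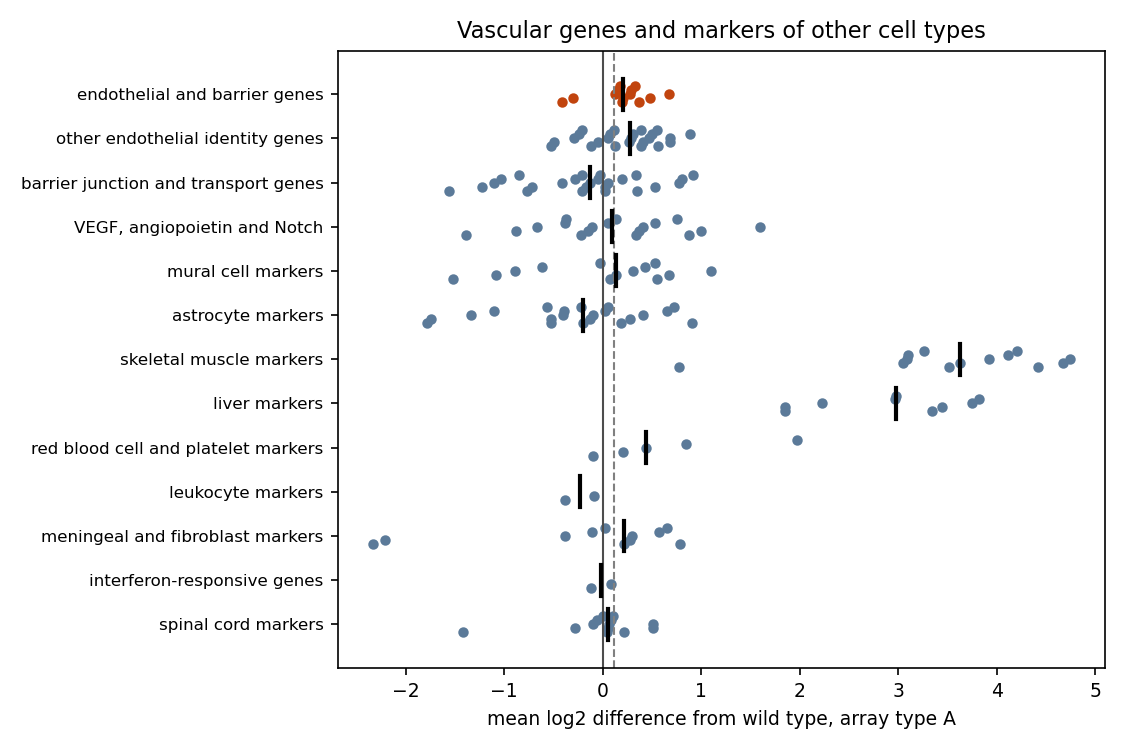
Mean log2 difference from wild type on array type A for each kept probe set of the endothelial and barrier genes (red) and of the other gene lists (blue), with the median of each list as a black bar. The members reach from -0.41 to 0.67 and lie near the dashed median of all kept probe sets (0.11), whereas skeletal muscle markers have a median of 3.62 and liver markers 2.97.

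**Figure D4:**
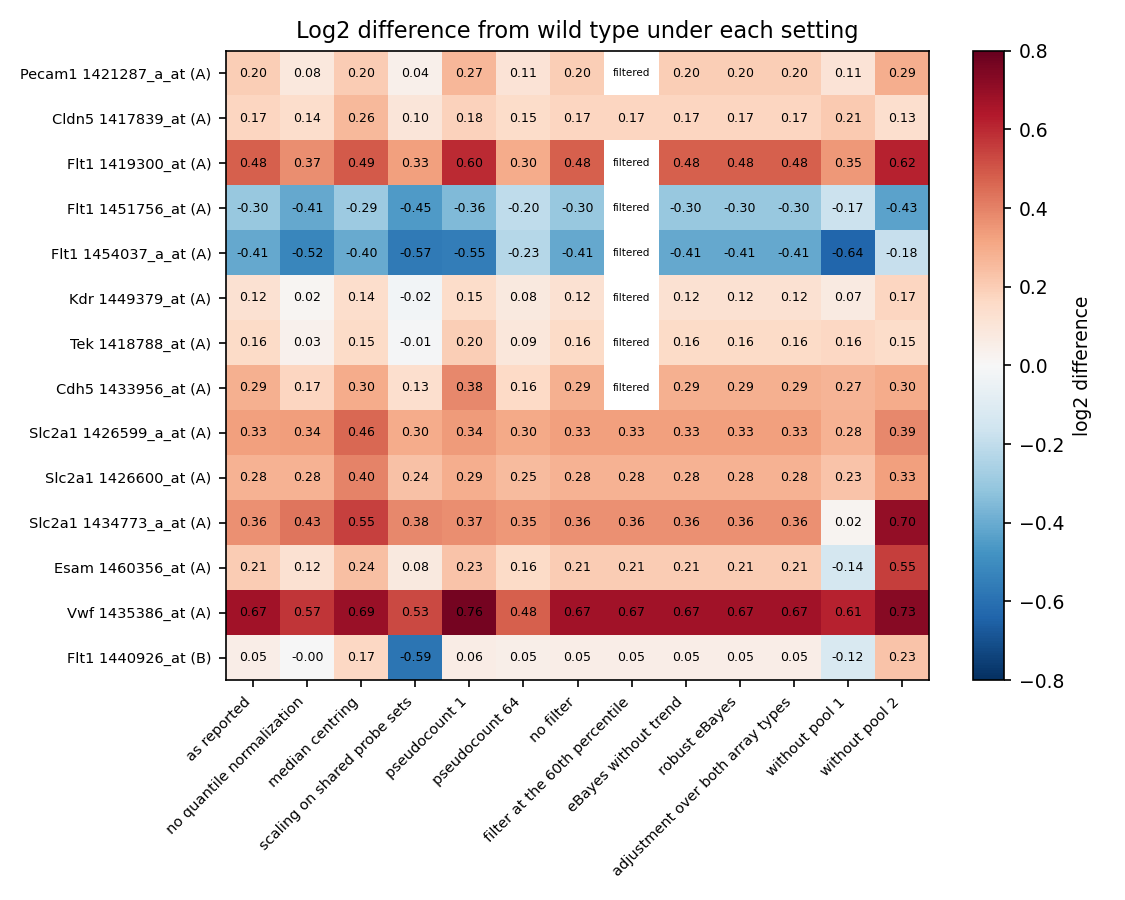
Log2 difference from wild type of each member probe set tested, under the settings used for the values given here and under each alternative. Vwf stays between 0.48 and 0.76 and the Flt1 probe set on B runs from -0.59 to 0.23.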

How the data were processed

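The value tables held 22690 (array type A) or 22575 (B) probe sets, 1 column per pool. Each value deposited by the authors was a linear intensity. These intensities had trimmed means (2% from each tail) between 150.02 and 150.06 on every array, so the authors had scaled them. No label names the program that made them. Median intensities ran from 50.3 to 60.1 on A and from 76.2 to 91.8 on B, in each case lowest in pool 1 and highest in wild type.

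The 64 control probe sets of each array type were left out. The scale was log2(intensity + 16). Arrays of a type were then quantile normalized, and a filter at the 40th percentile was set, which kept 13576 and 13507 probe sets. The fit was limma 3.58.1 in R 4.3.3 (lmFit, eBayes with trend), across all kept probe sets, with 1 residual degree of freedom. The code was checked on simulated data, where it recovered 79.5% of log2 changes of 1 on A but 7.69% on B. The simulated spread was the same for all probe sets of an array type, so these shares need not hold for the real data. Symbols were updated through the RefSeq gene table of GRCm38.p6. Members and gene lists were chosen with earlier results of these data known. Named list genes of the vascular lists were the called ones and, on each side, up to 2 with the most extreme difference among those on the same side in both pools. Such a gene was given by the probe set with that difference, and its other probe sets can lie nearer wild type. The other lists are given mainly by counts or summed intensity. Chat, Slc5a7, Slc6a5, Hoxc10, Hoxd10, Hba-a1, Alas2, Alb, Pf4, Ppbp, Itga2b, Gp1bb and Gp9 were named after their values were seen. So were the further probe sets of Notch1, Mbp, Slc1a2, Ifi27, Cd93, Ptprb, Cgnl1, Jam2, Hif1a, Vtn, Cspg4 and Rgs5. With 3 pools no gene was named for likeness of pattern. Alternatives are listed in the closing section. The number of arrays limits the precision. The p values combine the spread between pools 1 and 2 with the prior of limma, and wild type, having 1 pool, added no spread. Against that 1 residual degree of freedom, and under the settings used for the values given here, the prior carried a weight of 6.54 for array type A and 52.3 for array type B. The p values therefore rest mostly on the prior.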

Additional observations from a re-analysis of the deposited data

How the results depend on the processing

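Limma called 0 member probe sets on either array type under every alternative that allows a test: no quantile normalization, median centring, scaling on the 100 probe sets shared between array types, pseudocount 1 or 64, filter removed or moved to the 60th percentile, robust eBayes or eBayes lacking the trend, and joint adjustment of both array types. On A, 11 of 14 member probe sets exceeded wild type in both pools, and 7 on shared scaling, where the share of all kept probe sets above was 41.1%. The median member difference on A was 0.21; it was 0.098 on shared scaling and 0.30 under the 60th percentile filter, which kept 6 probe sets, and 0.20 over gene means. Shared scaling moved the median of all kept probe sets on A from 0.11 to 0.012. Leaving out pool 1 or pool 2 gave medians of 0.16 or 0.30 on A and -0.12 or 0.23 on B; counts above wild type were 11 or 12 on A and 0 or 1 on B. On shared scaling the Flt1 probe set on B was at -0.59, where the median of all kept probe sets was -0.67; without quantile normalization it was at -0.0021, and without pool 1 at -0.12. Kdr (-0.025) and Tek (-0.0090) changed sign on shared scaling and Esam (-0.14) without pool 1, against 0.55 without pool 2. Over all kept probe sets the count of calls depended on the setting. On A it was 9, and 824 under median centring, 26 with joint adjustment, 0 with no filter, and between 8 and 12 in the remaining alternatives. On B it was 220, and 2 without quantile normalization, 141 under median centring, 0 on shared scaling, with no filter or lacking the trend, 349 at pseudocount 64, 375 under the 60th percentile filter, 371 with robust eBayes, 121 with joint adjustment and 162 at pseudocount 1. The cause of these changes was not tested. No paired analysis was possible because wild type has 1 pool and no label pairs it with another. Pecam1, the Cdh5 probe set not tested and 1 Flt1 probe set lay near or under the filter intensity.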
